A study of Mus musculus with 2 samples.

Results

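The MYC family and its network partners were described by the open chromatin at their genes in the early postnatal mouse cerebellum. The 10 genes were Myc, Mycn, Mycl, Max, Mxd1, Mxd3, Mxd4, Mxi1, Mnt and Mga, of 21670 annotated protein-coding genes on the autosomes and X. For each gene, every deposited DNase peak was taken at its coding starts (the 500 bp on either side of the start of any protein-coding transcript, called the promoter below), in its body and in the 100 kb on either side. DNase-seq cuts nuclear DNA with DNase I, and a dense cluster of cuts is called as a peak of accessible chromatin, while a short stretch in it that is spared from cutting is called as a footprint. The 2 libraries come from the cerebellum, taken at an age of 4 days, of B6CASTF1/J males, the first-generation offspring of a cross of a C57BL/6 with a CAST parent, and 3 males are named in each label. No treatment or transgene is named, the labels number the libraries as biological replicates 1 and 2 and give both the same donor record, and both belong to 1 group. With 1 group and 2 libraries no condition could be compared and no test was made, so each value is given for both libraries and read against all genes. DNase signal shows accessible DNA and not RNA or protein, and in whole tissue an open site in more cells and a more open site per cell cannot be told apart.

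MYC, MYCN and MYCL are basic helix-loop-helix leucine zipper factors that bind E-box DNA as dimers with MAX and raise the transcription of genes for growth and ribosome production. The MXD proteins (MXD1, MXD3, MXD4 and MXI1) and MNT compete for MAX and recruit the SIN3 histone deacetylase complex to the same sites, and MGA, a large protein with a T-box as well as a helix-loop-helix domain, joins MAX in a Polycomb-type complex. In the cerebellum, Mycn is known as a target of Sonic hedgehog signalling that keeps granule cell progenitors dividing.

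The stretches below carry the results that follow, because they are the strongest or the most clearly marked accessible sites of their genes. They are read 5′ to 3′ on the strand of the gene from the reference assembly GRCm38.p6 and not from the hybrid animals. Capitals mark bases inside footprints of both libraries, except for Mycn, whose shared footprints lie downstream of the printed stretch and whose capitals mark matches to E2F sequences. Printed bases that the RefSeq promoter table also covers had the same letters there. Myc is not printed.
Mycn upstream part of the start peak, chr12:12941915-12942020: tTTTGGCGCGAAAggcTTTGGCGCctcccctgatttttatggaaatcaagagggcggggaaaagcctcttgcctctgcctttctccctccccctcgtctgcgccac
Mycl upstream peak, chr4:122995401-122995600: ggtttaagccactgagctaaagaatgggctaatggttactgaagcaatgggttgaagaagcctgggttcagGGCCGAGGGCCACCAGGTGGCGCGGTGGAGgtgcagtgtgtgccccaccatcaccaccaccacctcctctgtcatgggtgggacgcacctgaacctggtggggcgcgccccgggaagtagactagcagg
Max start peak, chr12:76962221-76962520: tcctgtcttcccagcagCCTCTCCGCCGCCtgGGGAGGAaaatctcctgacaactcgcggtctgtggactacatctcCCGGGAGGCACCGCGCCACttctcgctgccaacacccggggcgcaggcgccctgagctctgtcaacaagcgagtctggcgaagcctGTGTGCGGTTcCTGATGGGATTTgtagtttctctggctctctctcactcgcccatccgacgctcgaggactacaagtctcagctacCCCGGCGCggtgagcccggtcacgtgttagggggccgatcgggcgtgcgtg
Mxd1 start peak, chr6:86669241-86669540: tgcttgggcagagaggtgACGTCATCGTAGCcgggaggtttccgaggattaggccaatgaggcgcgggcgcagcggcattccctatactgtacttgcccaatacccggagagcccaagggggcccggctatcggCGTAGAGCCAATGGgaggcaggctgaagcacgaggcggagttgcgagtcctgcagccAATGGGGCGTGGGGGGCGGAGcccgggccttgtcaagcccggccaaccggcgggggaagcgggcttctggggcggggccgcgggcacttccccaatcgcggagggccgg
Mxi1 intron, chr19:53314221-53314420: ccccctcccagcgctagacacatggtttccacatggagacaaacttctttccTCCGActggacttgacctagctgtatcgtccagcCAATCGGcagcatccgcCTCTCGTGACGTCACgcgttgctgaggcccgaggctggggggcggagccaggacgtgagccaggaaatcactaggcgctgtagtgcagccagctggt
Mnt intron, chr11:74832201-74832420: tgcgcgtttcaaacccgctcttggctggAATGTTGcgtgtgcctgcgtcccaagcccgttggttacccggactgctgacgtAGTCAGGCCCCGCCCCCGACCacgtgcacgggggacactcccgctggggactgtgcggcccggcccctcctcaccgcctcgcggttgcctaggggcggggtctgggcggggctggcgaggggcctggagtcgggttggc
Mga upstream part of the start peak, chr2:119897101-119897227: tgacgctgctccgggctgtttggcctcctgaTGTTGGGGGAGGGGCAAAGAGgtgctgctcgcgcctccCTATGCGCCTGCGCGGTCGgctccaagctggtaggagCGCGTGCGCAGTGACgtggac

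The less strict deposited lists held 61896 peaks in replicate 1 and 131518 in replicate 2, and the footprint lists 112281 and 261301. Peak values are the authors' normalised signal. Over the 12774 genes whose promoters were open in both libraries, this signal was higher in replicate 2 by a median of 1.02 on the log2 scale. The promoters of the cerebellum and granule lineage markers were open in both libraries at 7 of 9 genes. Pax6 was open in replicate 2 alone and Barhl1 in neither. The summed value of the list was 9.26 in replicate 1 and 13.9 in replicate 2. Of the 7, Atoh1, Zic1, Zic2 and En2 were lower in replicate 2, and Neurod1, Cntn2 and Gli1 were higher. Purkinje cell markers were open in both at 4 of 6 genes, without Pcp2 and Skor2, and summed to 5.63 and 12.1. Glial markers were open in both at 4 of 6, with Gfap and Aqp4 open in replicate 2 alone, and summed to 5.59 and 14.0. Forebrain markers were open at 2 of 5 genes in replicate 1 and at 5 of 5 in replicate 2, summing to 1.89 and 12.7, with Emx1, Six3 and Neurod6 open in replicate 2 alone. None of the 6 microglia and blood markers or the 5 markers of other organs was open in either library. The part of these marker differences in the differences between libraries given below was not tested.

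The promoters of all 10 network genes held a peak in both libraries, against 58.9% of all protein-coding genes, and all 10 did so in the stricter lists, against 52.3%. The 5 strongest promoter peaks belonged to Max and to genes of its other partners, and the 3 MYC genes were all among the weaker 5. In replicate 1 the strongest promoter value ran from 1.28 at Myc to 5.87 at Mxd1, and in replicate 2 from 3.68 at Mxd3 to 19.3 at Mxd1, beside medians over all genes with a promoter peak of 2.11 and 4.00. By value the 5 highest genes stood in the same order in both libraries: Mxd1, Max, Mxd4, Mnt and Mga. The lower 5 did not. In replicate 1 their order was Mxi1, Mycl, Mxd3, Mycn and Myc, and in replicate 2 it was Mycn, Mxi1, Mycl, Myc and Mxd3. The exact 95% Poisson intervals of neighbours in this order overlapped in 4 of 9 pairs in each library. In replicate 1 the overlaps ran through Mnt (3.10 to 3.69), Mga (2.95 to 3.52), Mxi1 (2.61 to 3.15) and Mycl (2.41 to 2.93), across the border between the upper and the lower 5. The intervals of Mxd3 (1.57 to 2.00) and Mycn (1.52 to 1.93) overlapped there too. In replicate 2 those of Mxd4 (11.49 to 12.61) and Mnt (10.498 to 11.57) overlapped. Further down, those of Mycn (5.12 to 5.88), Mxi1 (5.00 to 5.75) and Mycl (4.56 to 5.27) overlapped, as did those of Myc (3.61 to 4.25) and Mxd3 (3.38 to 4.00). These intervals take 1 step of the value scale (0.00645 in replicate 1 and 0.00665 in replicate 2) as 1 counted cut and cover counting error only. All 10 genes had windows richer in CG dinucleotides (60 to 109 around the 5′-most start) than the median of all genes (42).

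**Figure D1:**
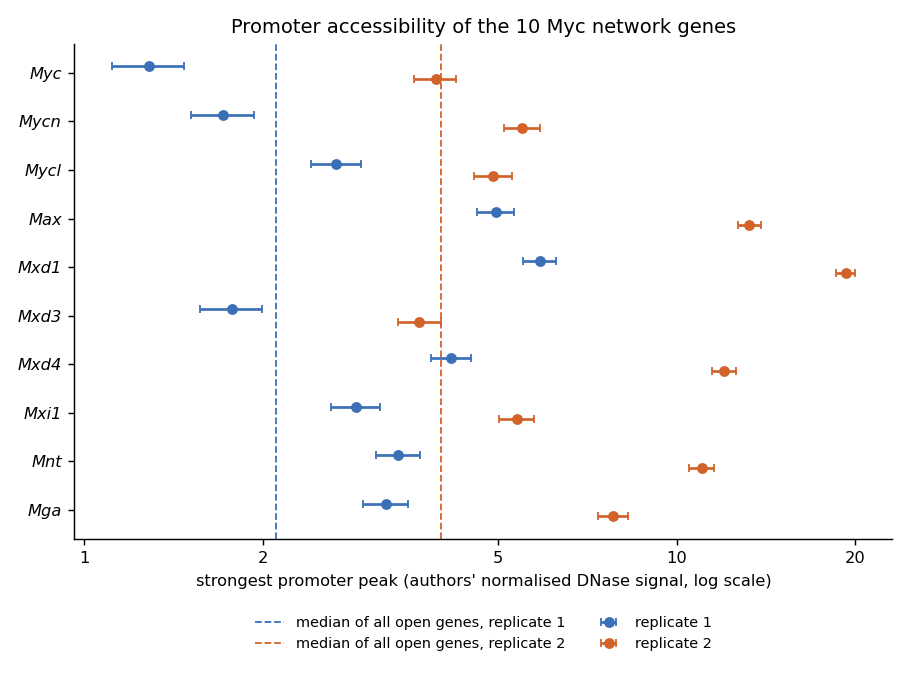
Strongest promoter peak of each gene in replicate 1 (blue) and replicate 2 (orange), in the authors' normalised signal on a log axis, with exact 95% Poisson intervals as bars and the median of all genes with a promoter peak as dashed lines. Every gene lies higher in replicate 2. Mxd1 reached 5.87 and 19.3, and Myc reached 1.28 and 3.92.

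Myc, the founding member of the family, had a modest start region beside a stronger site just upstream. Its strongest promoter peak measured 1.28 in replicate 1 and 3.92 in replicate 2, which placed it at percentiles 27.3 and 49.2 of the genes with a promoter peak. Each of its 6 distinct coding starts, on chr15 between positions 61985391 and 61987422, lay within 500 bp of a peak in both libraries. A second peak at the first starts measured 1.26 and 3.13. In the less strict list of replicate 1 most of it lay inside the strongest peak, whereas in replicate 2 they were separate. The later starts had their own peaks, of 1.25 and 2.83 near position 61987034 and of 0.716 and 0.798 near 61987422. Replicate 2 had a further and stronger peak of 1.16 beside the latter start. It overlapped a peak of 0.703 in replicate 1 that lay outside the promoter window. Another peak, of 0.805, was called in replicate 2 alone. A peak 1.85 kb upstream of the first start, chr15:61983361-61983540, measured 2.51 in replicate 1 and 8.93 in replicate 2. That site was thus higher than every Myc promoter peak in both libraries. It held a match to the CTCF motif, and all 11 bases of the match lay in footprints of both libraries. CTCF is the factor that marks many chromatin domain borders.

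Mycn, the family member known for progenitor growth in this tissue, showed one peak at its main start and a second one just outside the promoter window. The peak at the start of Mycn-201, on chr12, measured 1.72 in replicate 1 and 5.49 in replicate 2, at percentiles 39.6 and 63.4. The next peak upstream, chr12:12942481-12942620 in replicate 1, began 567 bp from that start and measured 2.43, against 4.65 in replicate 2. In replicate 1 it was therefore the higher of the pair, and in replicate 2 the lower. The inner start of Mycn-202 had 0.748 and 1.74, and it was absent from the stricter list of replicate 1. Beside it, replicate 1 had a peak of 0.632 with no partner. Bases with an FDR under 0.05 covered 29.7% of the window of that inner start in replicate 1 and 93.7% in replicate 2. The printed Mycn stretch holds the E2F letters TTTGGCGC at 2 places and TTTCGCGC, on the other strand, at 1. E2F factors regulate genes of DNA synthesis. All 3 matches lie at -90, -101 and -105 bp from the start and overlap a footprint of replicate 2 and none of replicate 1. They lie in the start peak of replicate 2, whereas that of replicate 1 ended short of them. TTTGGCGC occurred in 1.65% of the windows of all genes and TTTCGCGC in 0.914%.

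Mycl, the family member first found in lung cancer, had a different strongest peak in each library. The upstream peak printed above measured 2.66 in replicate 1 and 3.39 in replicate 2. The second peak measured 1.31 in replicate 1, where it spanned the starts of Mycl-202 and Mycl-201. In replicate 2 it measured 4.90, spanned the start of Mycl-202 and ended just short of that of Mycl-201. The first was the higher in replicate 1 and the second in replicate 2, so the log2 difference of the strongest values (0.88) compares different sites. A further peak, of 0.897, was called in replicate 1 alone. All 30 capitals of the Mycl stretch form one block, which holds a CTCF match at -171 bp from the first start with all 11 bases in footprints of both libraries. Of all promoter windows, open or not, 2.16% held such a match, and 0.688% held one that overlapped footprints of both libraries.

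Max, the obligate dimer partner, was among the most open genes of the network. Its single strong peak, immediately upstream of its 3 coding starts on chr12, measured 4.95 in replicate 1 and 13.3 in replicate 2, at percentiles 94.8 and 96.6. The only other promoter peak was 0.510 in replicate 1, with none overlapping it in replicate 2. The Max stretch shows 6 separate blocks of capitals. The MYC-MAX E-box CACGTG occurs at 2 places of the Max promoter. The one at -50 bp from the 5′-most start lies outside these blocks and overlapped a footprint of replicate 2 by 3 of its bases and none of replicate 1. It lay in the peak of replicate 2 and outside the peaks of replicate 1. The other, at -325 bp and just upstream of the printed stretch, lay in the peaks of both libraries and in no footprint of either.

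Among the genes of the MAX-binding repressors, Mxd1 had the highest promoter value and Mxd3 the lowest. Mxd1, a gene linked to cell cycle exit and differentiation, measured 5.87 in replicate 1 and 19.3 in replicate 2, at percentiles 98.1 and 99.8. Its promoter peaks, with a weak one of 0.625 in replicate 2 alone, all lay at the start of Mxd1-201. The start of Mxd1-202, at chr6 position 86663105, had no peak, no footprint and no base with an FDR under 0.05 in either library, the only such start among the 31 of the network. The Mxd1 stretch has 3 blocks of capitals. The first overlaps a CRE, the CREB binding sequence TGACGTCA, at -363 bp from the start, with 6 of its 8 bases in a footprint in replicate 1 and 8 in replicate 2. This CRE lay in the peak of replicate 2 and outside the narrower peak of replicate 1. The other blocks each overlap a CCAAT box, the NFY sequence, at -238 and -190 bp, and the last also holds the SP/KLF letters GGGCGG. A CRE occurred in 3.37% of all windows, of open and closed promoters alike, and overlapped footprints of both libraries in 325 of the 21670.

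Mxd3, the family member linked to dividing cells, had its strongest peak upstream of its only coding start, at 1.77 in replicate 1 and 3.68 in replicate 2. Its second peak, downstream of the start, measured 1.32 in replicate 1 and 1.12 in replicate 2 and was thus slightly lower in replicate 2. A further one, of 0.742, was called in replicate 1 alone. Mxd4, linked to resting and differentiated cells, measured 4.161 in replicate 1 and 12.04 in replicate 2 at its adjacent starts, at percentiles 88.4 and 94.7. A second peak of replicate 1 there, most of which overlapped the first, measured 3.29. A weak one downstream measured 0.484 in replicate 1 and 0.565 in replicate 2. The lowest FDR in its start window was 1.40e-120 in replicate 1, below that of Mxd1 in the same library (1.39e-47), although its peak value was lower than that of Mxd1. In replicate 2 the order was the other way, with 2.29e-109 at Mxd4 and 1.11e-265 at Mxd1.

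Mxi1, also named Mxd2, had the most spread starts, 8 positions on chr19 between 53310518 and 53330408. The first start measured 1.497 in replicate 1 and 1.384 in replicate 2 and so was slightly lower in replicate 2. The start at 53313066 measured 1.56 and 3.01. The group of 5 starts between 53329413 and 53329808 was the most open, with 1 peak of 1.84 and 5.37 and 1 of 2.87 and 4.16. The former was the stronger in replicate 2 and the latter in replicate 1. The other start peaks of Mxi1 were weaker, at 0.639 and 1.24 and at 1.16 and 1.88, with 0.652 in replicate 1 alone and 0.592 in replicate 2 alone. The most accessible site of the gene was not a start. It lay in an intron at chr19:53314241-53314440, 1.18 kb from the nearest coding start, with 6.61 in replicate 1 and 11.0 in replicate 2, above every start peak of Mxi1 in both libraries. By mean percentile (99.5 of all peaks) it was the highest of the 50 shared distal peaks of the network. In the printed stretch, the capitals CTCTCGTGACGTCAC hold a whole CRE, and CAATCGG holds 4 bases of a CCAAT box whose first base lay in a footprint of replicate 1 alone. Among 200-bp windows at all 24085 shared distal peaks, 0.515% held a CRE and 0.145% held one overlapping footprints of both libraries.

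Mnt, the broadly expressed MAX partner that counters MYC, was open at several sites in its 5′ part. Its strongest peak, centred about 500 bp upstream of the main start, measured 3.39 in replicate 1 and 11.0 in replicate 2, at percentiles 77.6 and 92.0. The peak at the start itself measured 2.55 and 6.63, and that near the start of Mnt-202 measured 1.71 and 4.43. Replicate 2 alone had a further one of 0.891. A peak in an intron at chr11:74832181-74832400 reached 4.12 in replicate 1 and 9.32 in replicate 2. In replicate 1 it was higher than any Mnt promoter peak and in replicate 2 it was between the upstream and the start peak. The long block of capitals in the Mnt stretch holds the SP/KLF letters (as the reverse complement of GGGCGG) and ends on the first base of a canonical E-box, CACGTG, which overlapped the footprints by 1 base in replicate 1 and by 3 in replicate 2. Of the 50 shared distal peaks of the network, 6 held such an E-box in a 200-bp window at their midpoint, and in 1 it overlapped footprints of both libraries. In the whole series 4.17% of such windows held one and 0.424% overlapped footprints of both.

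Mga had a compact promoter with 2 peaks in each library. Its start peak measured 3.23 in replicate 1 and 7.82 in replicate 2, at percentiles 74.9 and 79.0, and a second peak just downstream measured 1.097 and 2.095. All 4 of its footprints in replicate 1 overlapped footprints of replicate 2, and 4 of the 10 in replicate 2 overlapped those of replicate 1. The Mga stretch shows 3 blocks of capitals. A site 23.8 kb upstream, chr2:119873161-119873400, measured 2.21 and 7.23 and stood beside weaker shared peaks of 1.32 and 1.80 and of 1.15 and 1.46.

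Over the 31 distinct coding starts, 30 had a peak in both libraries and 29 did so in the stricter lists. The promoters held 31 peaks in replicate 1 and 30 in replicate 2, and 26 of each overlapped a peak of the other library. Peaks of the same library can overlap each other, as at Myc and Mxd4, and each was counted. All 10 genes had a promoter footprint in both libraries, against 56.5% of all genes. That share takes in genes without a promoter peak. Genes with a promoter footprint in both libraries numbered 12242, and those with a promoter peak in both 12774. As all 10 genes were open in both, their footprint count says little beyond that. Of 70 promoter footprints in replicate 1, 49 (70.0%) overlapped a footprint of replicate 2, and of 130 in replicate 2, 46 (35.4%) overlapped one of replicate 1. Over all coding promoters these shares were 61.2% and 35.3%. All 3 footprints of Mxd1 in replicate 1 and all 4 of Mga recurred in replicate 2, whereas 6 of the 12 of Myc and 8 of the 15 of Mxi1 did. Counted from replicate 2 the order was different, with 3 of 10 footprints shared at Mxd1, 4 of 10 at Mga, 7 of 17 at Myc and 7 of 21 at Mxi1.

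**Figure D2:**
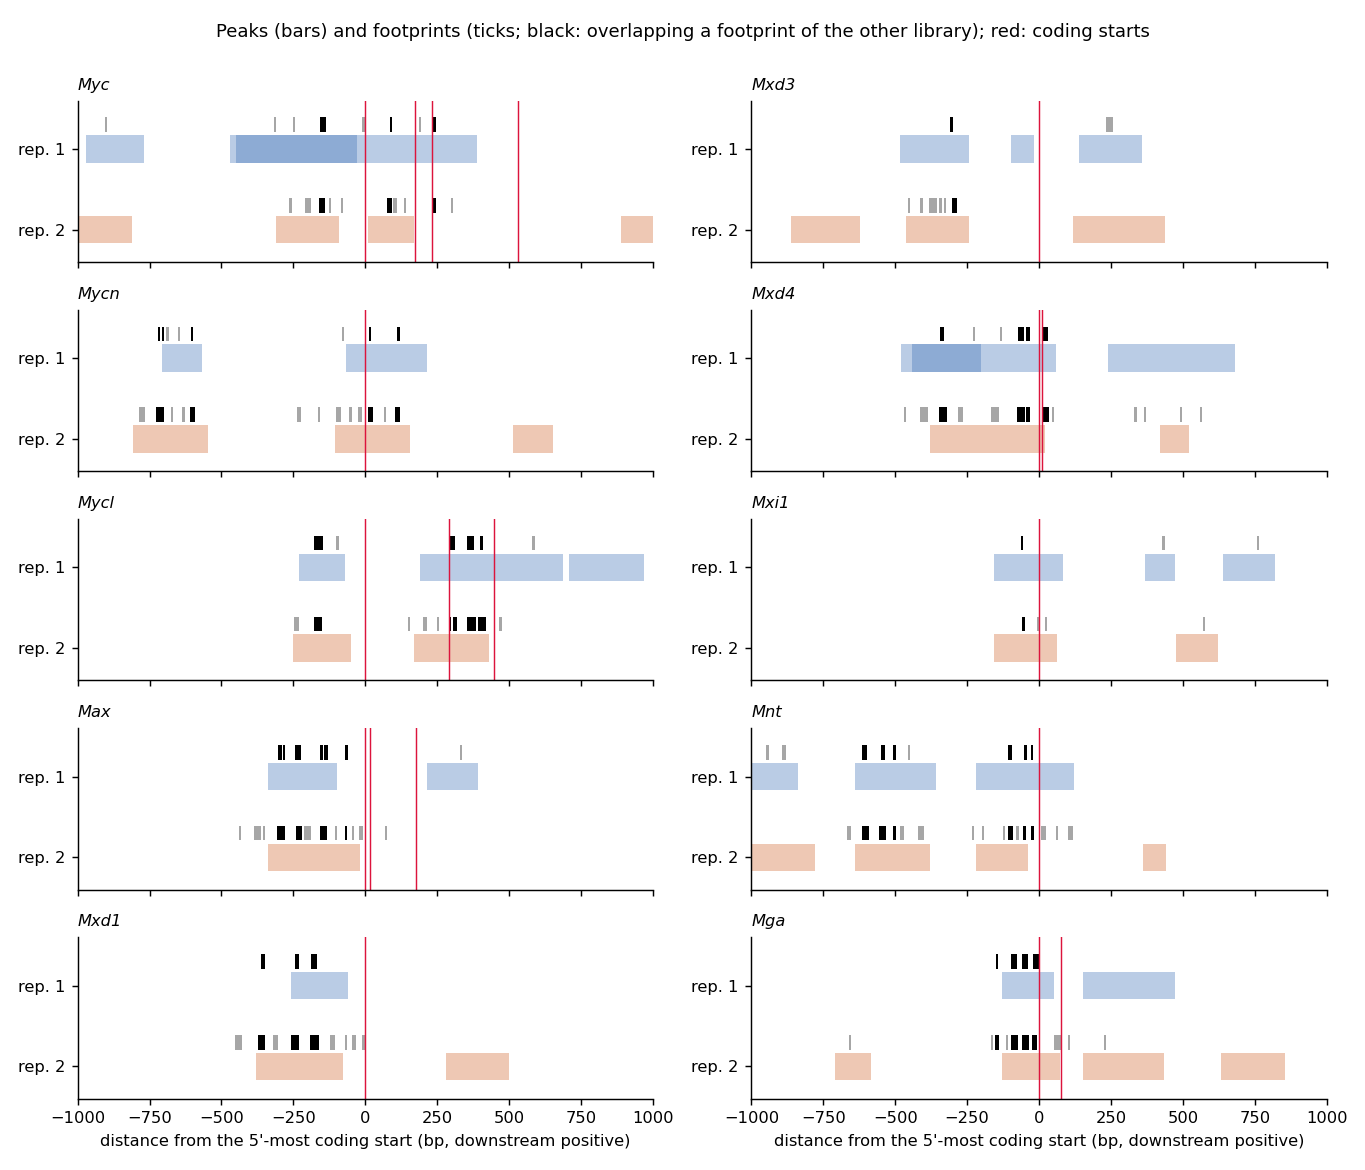
Peaks (bars) and footprints (ticks above them) within 1000 bp of the 5′-most coding start of each gene, in replicate 1 (blue) and replicate 2 (orange), with coding starts in red, against distance in bp. Black ticks are footprints that overlap one of the other library. At Mxd1 and Mga every tick of replicate 1 is black.

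Sequence matches in the window at the 5′-most start were read as letters only. The shares of all windows below include genes without a promoter peak in both libraries. Of all genes 58.9% had one, and all 10 network genes did. The footprint shares are therefore not a background of open promoters. The canonical E-box CACGTG stood in the windows of Max, Mxd3, Mxd4 and Mnt, against 17.1% of all windows, and in no network gene did it overlap footprints of both libraries there, against 1.03% of all windows. All 10 windows held GGGCGG, against 61.3%. It overlapped footprints of both libraries at Mycn, Mxd1, Mxd4, Mnt and Mga, against 19.4%. At the most open group of Mxi1 starts, outside the window read here, GGGCGG matches also lay wholly in footprints of both libraries. CCAAT stood in 7 windows, against 70.4%, and overlapped footprints of both at Mxd1 and Mxd4, against 4.35%. Another E2F sequence, GGCGGGAA, stood in the windows of Myc and Mxd3, against 7.28%. At Myc it overlapped footprints of both libraries, by 6 bases in each, against 0.498% of all windows. The E2F letters TTTGGCGC stood at Mycn and Mxd3, against 1.65%, and overlapped footprints of both libraries at neither, against 0.138%. The GLI letters TGGGTGGTC, the hedgehog effector site, and the TCF/LEF letters AGATCAAAG stood in none of the 10 windows, against 0.863% and 1.07% of all. Each sequence was searched on both strands, a palindrome was counted once at a place, and different sequences could overlap, as the E2F matches of Mycn do.

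The 10 loci held 143 peaks in replicate 1 and 225 in replicate 2. Of these, 107 in each overlapped a peak of the other library, which is 74.8% of those of replicate 1 and 47.6% of those of replicate 2, beside 71.1% and 33.4% over the whole lists. With the 61896 strongest peaks of each library, the shares in the 10 loci were 65.7% and 66.9%. Distal peaks, those over 1000 bp from any coding start, numbered 77 in replicate 1 and 152 in replicate 2, and 50 of replicate 1 were shared. The shared part of the distal peaks was 64.9% in replicate 1 and 34.2% in replicate 2, beside 61.9% and 24.0% over the whole lists. All 10 loci had at least 1 shared distal peak, against 82.9% of all coding loci. The median of the network was 2.08 shared distal peaks per 100 kb, and over all coding loci it was 1.25, with quartiles of 0.464 and 2.26. Of the 50, 31 held footprints that overlapped between the libraries and 27 lay in the stricter list of both.

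**Figure D3:**
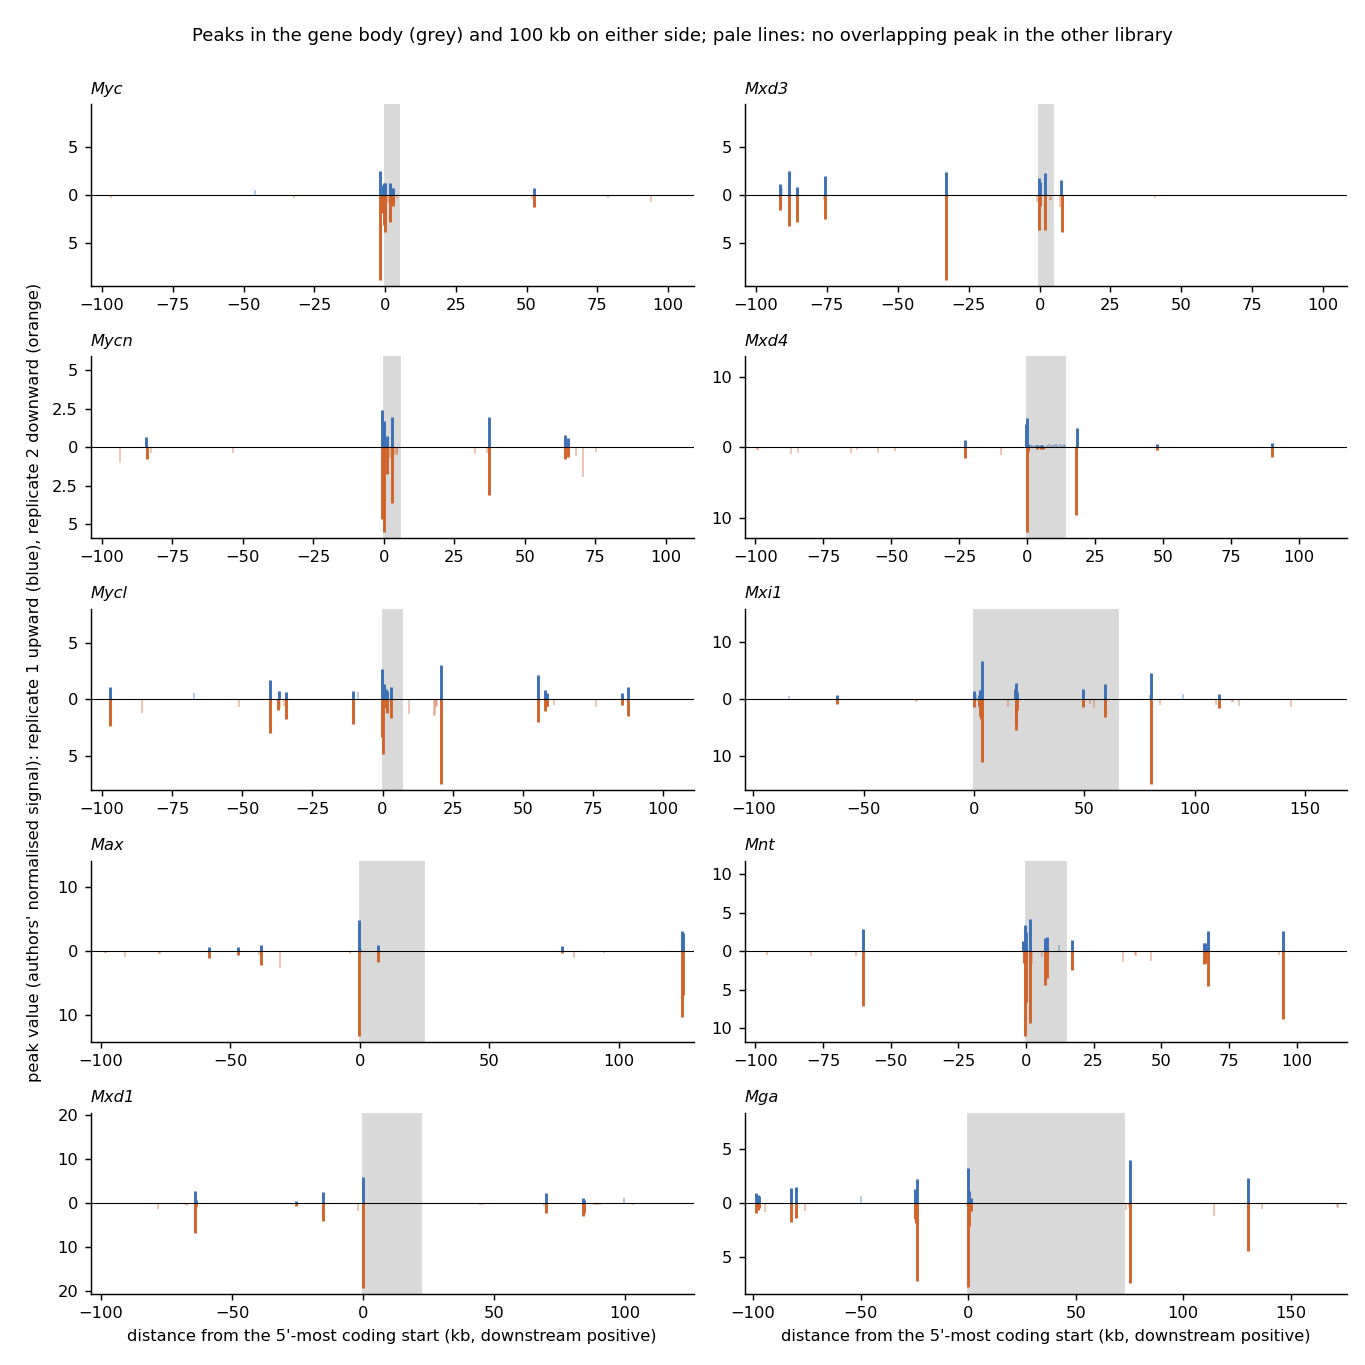
Peak values (authors' normalised signal) along each locus against distance in kb from the 5′-most coding start, with replicate 1 upward in blue, replicate 2 downward in orange and the gene body in grey. Pale lines have no overlapping peak in the other library. Mycl carries the most shared distal sites, 11, and at Mxi1 an intronic site of 6.61 and 11.0 exceeds the start peaks.

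Mycl had the densest set of shared distal peaks, 11 or 5.32 per 100 kb, at percentile 98.03 of all coding loci. They lay on both sides of the gene, and the strongest were in the body of Trit1 (2.10 and 2.06) and of Mfsd2a (1.67 and 3.03), 2 neighbouring coding genes. Mxd4 followed with 2.81 per 100 kb, Mycn with 2.43, Max with 2.22 and Mga with 2.20. Some of those of Mxd4 lay in its own body, within the run of weak replicate 1 peaks described below, so its rank depends in part on that run. The fewest stood at Myc, 0.976, and Mnt, 0.931, with 2 each. The nearest coding gene of a distal peak need not be the gene it acts on, and no contact data are used here.

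The strongest shared distal sites differed in place from gene to gene. At Mycn an intronic peak 2.76 kb downstream of the first start measured 1.95 in replicate 1 and 3.67 in replicate 2, and one in the noncoding gene 4930519A11Rik, 37.3 kb downstream, measured 1.93 and 3.12. At Mxd3 a peak in the neighbouring gene F12 measured 2.48 and 3.24, and its own intron measured 2.24 and 3.62 at a CTCF match covered by footprints of both libraries. At Mxd1 the strongest, between genes and 69.8 kb downstream, measured 2.24 and 2.28. Those of Max (1.01 and 1.66, in an intron) and Mxd4 (1.01 and 1.54, in Zfyve28) were the weakest of the 10. In the Myc locus the other shared distal peak, 0.703 and 1.21, spanned the annotated start of Pvt1, a long noncoding RNA gene. In these 200-bp windows, CTCF matches stood at 8 of the 50 shared distal peaks and overlapped footprints of both libraries in 6, beside 20.2% and 18.5% of the shared distal peaks of the whole series.

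Each gene also had peaks without a partner in the other library. In replicate 1 the highest of them was 1.21, downstream of Mxd1, and the other genes had at most 0.974 (Mxi1). In replicate 2 the highest were 2.69 upstream of Max in the noncoding gene Gm35041, 2.39 downstream of Mxd1 and 1.92 downstream of Mycn in Gm48187. The lowest of the 10 in replicate 2, 0.805, lay at a Myc start.

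The body of Mxd4 held a run of weak peaks in replicate 1. It held 22 peaks in that library, 21 of them with values under 0.5, which is 15.9 per 10 kb, and 0 of the 13988 coding genes of 10 kb or more had a higher density. Replicate 2 had 8 peaks there, or 5.78 per 10 kb, and 46 genes had more. Bases with an FDR under 0.05 made up 56.6% of the Mxd4 body in replicate 1, against 4.27% of the same length upstream and 5.39% downstream. In replicate 2 they made up 19.5% of the body, 7.60% upstream and 5.15% downstream. In replicate 1 such bases covered 74.4% of the exons and 49.7% of the rest of the body, and in replicate 2 7.91% and 24.0%. The run of replicate 1 therefore took in exons and introns. It was not unbroken: the 1-kb bin from 6 to 7 kb downstream of the first start had no such base in replicate 1 and 35.5% in replicate 2. Mxd4 was the only locus of the 10 with more peaks in replicate 1 (28) than in replicate 2 (21). The median value of the 22 peaks was 0.284 in replicate 1, against 4.161 for the start peak. Mnt also had a dense body, with 4.05 peaks per 10 kb in replicate 1 and 6.08 in replicate 2, at percentiles 99.2 and 99.7, but none of its body peaks was under 0.5.

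**Figure D4:**
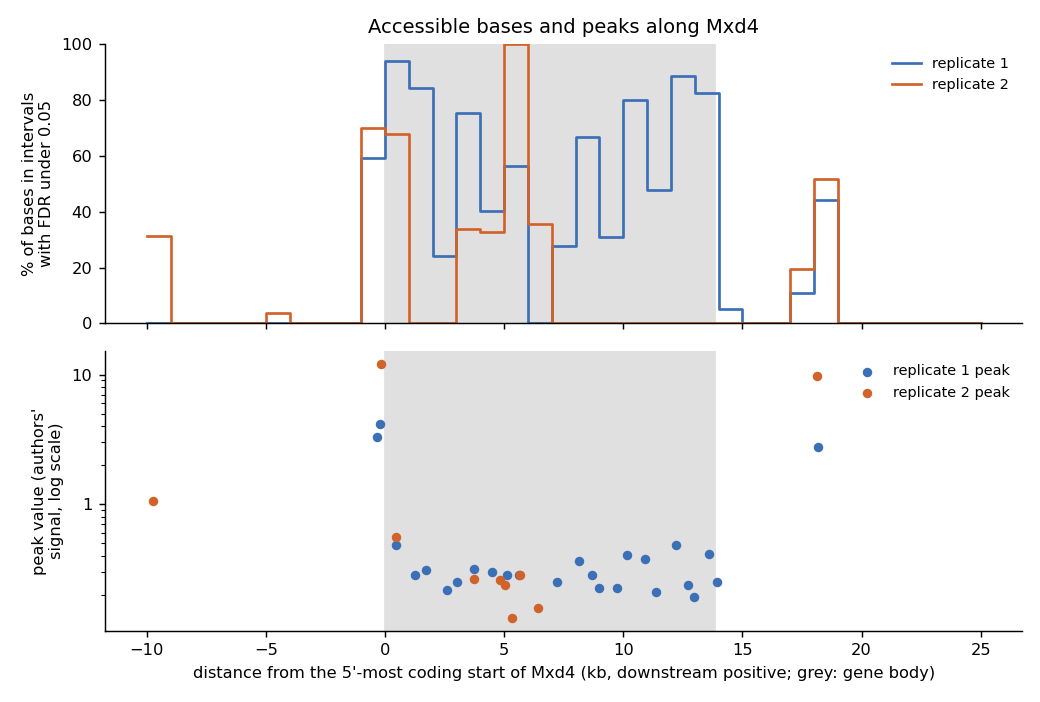
Along Mxd4, the upper panel gives the percent of bases of each 1-kb bin in intervals with an FDR under 0.05 and the lower panel the peak values on a log axis, against distance in kb from the 5′-most coding start. Replicate 1 is blue, replicate 2 is orange and the gene body is grey. Replicate 1 shows weak peaks along most of the body, with a median of 0.284, and a gap between 6 and 7 kb.

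All 10 strongest promoter values were higher in replicate 2, against 92.6% of the genes open in both libraries. The log2 difference was 1.72 at Mxd1, 1.70 at Mnt, 1.68 at Mycn, 1.61 at Myc, 1.53 at Mxd4 and 1.42 at Max. It was 1.28 at Mga, 1.05 at Mxd3, 0.90 at Mxi1 and 0.88 at Mycl. Set against the median of all genes (1.02, with quartiles of 0.61 and 1.36), Mycl at -0.14 and Mxi1 at -0.12 were lower in replicate 2 and the other 8 genes were higher, Mxd3 by 0.03. For Mycl and Mxi1 this direction rests on comparing different sites. At the site strongest in replicate 1 their differences were 0.35 and 0.54, below the median of all genes taken in that way (1.01), and at the site strongest in replicate 2 they were 1.90 and 1.55, above it (1.04). The differences of the distal sites were smaller. Of the 50, 41 were higher in replicate 2 and 9 lower, with a median log2 difference of 0.47, beside 75.3% higher and a median of 0.49 over all shared distal peaks. Myc and Mycn moved from percentiles 27.3 and 39.6 in replicate 1 to 49.2 and 63.4 in replicate 2, and Mycl went from 63.3 to 58.8. The granule lineage list had a median log2 difference of -0.16 and the forebrain list, over its 2 genes open in both, of 2.00. Their part in these differences was not tested.

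**Figure D5:**
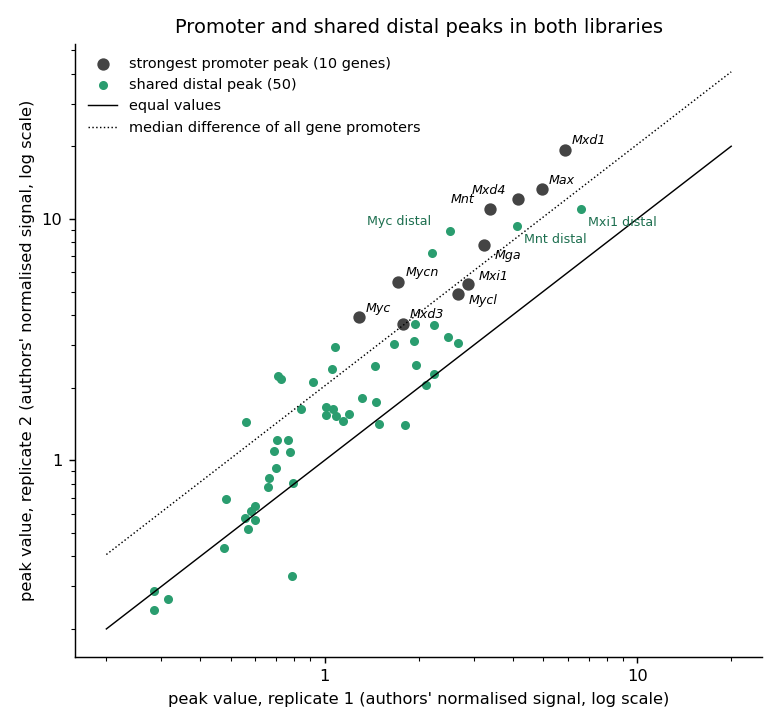
Values of the strongest promoter peak of each of the 10 genes (dark) and of the 50 shared distal peaks (green), replicate 1 against replicate 2, in the authors' normalised signal on log axes. The solid line marks equal values and the dotted line the median difference of all promoters, 1.02 on the log2 scale. All dark points lie above the solid line and 9 green points lie below it.

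The other genes of the pathway were open almost throughout. The 8 genes of the next list, the parallel MLX branch (Mlx, Mlxip and Mlxipl) and the related E-box-binding USF and MiT families, were all open in both libraries, with medians of 2.08 in replicate 1 and 4.07 in replicate 2. Mlx itself, the MAX-like partner, measured 2.21 and 5.19, Mlxip 1.98 and 3.67, Usf1 of the USF family 2.17 and 6.69, and the strongest, Tfeb of the MiT family, 5.70 and 7.53. Mlxipl, the glucose-sensing partner of Mlx, was the lowest at 0.722 and 1.27. All 19 cofactors were open in both, with medians of 2.18 and 4.54. Trrap, the scaffold of histone acetylase complexes, measured 2.76 and 3.85, and the acetylases Kat2a and Kat5 measured 1.90 and 3.31, and 2.18 and 4.38. The ATPases Ruvbl1 and Ruvbl2 measured 2.17 and 6.57, and 6.92 and 21.5. Ruvbl2 was the strongest of the list in replicate 2, and in replicate 1 Wdr5, a histone methylase subunit that MYC binds, was higher at 7.24 (8.81 in replicate 2).

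All 10 genes for MYC protein stability were open in both, with medians of 3.60 and 10.2. Fbxw7, the ubiquitin ligase subunit that marks MYC for destruction, was the lowest at 0.774 and 1.47, Huwe1 had 1.85 and 5.93, Skp2 3.41 and 8.93, the deubiquitinase Usp28 3.79 and 15.0, and Trim32 had 5.53 and 15.3. Of 18 known MYC target genes, 17 were open in both, with medians of 3.04 and 7.29. Odc1, the first enzyme of polyamine synthesis, measured 5.174 and 13.04, the nucleolar genes Ncl and Npm1 3.04 and 11.0, and 4.61 and 15.9, and Cad 3.42 and 4.93. Nop56, a ribosomal RNA processing factor, measured 6.35 and 14.0 and was the strongest in replicate 1, while Npm1 was the strongest in replicate 2. Ccnd2, a cyclin of granule cell progenitors, was open at its promoter in replicate 2 alone, with 1.85. Against the 58.9% of all genes, each of these lists was open in both libraries at a higher share.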

How the data were processed

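DNase-seq was done on 2 libraries of 1 group. Per the labels and the description files, the authors aligned each library to mm10 and called peaks and footprints on it alone. The aligner and callers were not given in the sources used here. Values are the deposited signal of each peak, normalised by the authors. In replicate 1 99.9984% and in replicate 2 all values were whole multiples of 1 step, within 0.05 steps. The deposited FDR is a q-value per short interval and only intervals under 0.05 are listed. Footprint scores deposited by the authors are a constant, so only positions were used. Depth in reads is unknown.

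Peaks, footprints and starts were joined in Python 3.11.15 with pandas 2.3.3 and NumPy 2.4.6 on GENCODE M21 (GRCm38), with code tested on simulated data. Peaks were shared from an overlap of 1 bp. The less strict list was the main one. Sequence letters came from the GRCm38.p6 assembly of RefSeq. The RefSeq promoter table matched 9 of the 10 genes by symbol (11 promoters), and Myc had no entry.

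The 10 genes and the lists were chosen with earlier results of these data known, and the CTCF motif was added after values were seen. The rule for named genes took all 10, every start peak, the strongest shared distal and unshared peaks, and of each other list the first 4 genes, the strongest and every one not open in both libraries. Other peaks named were chosen after their values were seen. One marker gene of the forebrain list is not reported here.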

Additional observations from a re-analysis of the deposited data

How the results depend on the processing

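No paired analysis was possible because the libraries form 1 group. The counts of genes with a promoter peak or a footprint in both libraries, and the share of all genes, stayed within 1.5 times their values under every window, list and start choice and with either library alone. The footprint count was 9 with windows of 200 bp on either side and 10 in the other settings. The 50 shared distal peaks became 28 with the stricter lists, a smaller set by construction, and 31 with 50 kb on either side, and the distal peaks of 1 library alone ranged from 77 to 152. The number of genes higher in replicate 2 (10) became 9 at the peak nearest the 5′-most start. It became 8 with the median of all genes removed and 8 by percentile rank, and stayed at 10 in the other alternatives. Single genes turned: Mycl became -0.14 and Mxi1 -0.12 after the median log2 difference of all genes was removed, their percentile ranks moved by -4.56 and -5.66 points, and Mxi1 at the peak nearest its 5′-most start became -0.11. Less that median, which shifts all genes alike, the other 8 genes ranged from 0.03 (Mxd3) to 0.69 (Mxd1). Taking both libraries at 1 site, an alternative chosen after seeing the data, left all 10 genes higher in replicate 2 and changed the value of Mycl and Mxi1 alone, to between 0.35 and 1.90. Leaving out Mxd4, also chosen after seeing the data, left 44 of the 50 shared distal peaks. It raised the overlap share of replicate 1 from 74.83% to 84.35%, and that of replicate 2 was 47.55% against 47.56%. Overlap shares and log2 differences have no value with 1 library left out. Read totals are unknown, and that a step is 1 cut is an assumption.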
